A study of Mus musculus with 21 samples.

Results

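CD11b+ cells of the spleen were compared with CD11b+ cells of the bone marrow (BM) in terminally ill mice of stage S3, that is in leukemic MxCre;Ptpn11D61Y/+ animals. All libraries whose title names S3 leukemic MxCre;Ptpn11D61Y/+ mice and CD11b+ cells were taken, which gave 6 of the 21 libraries of the series. They are 3 of the spleen and 3 of the BM, and both tissues carry the same animal numbers, 540, 815 and 640. The labels therefore name 1 mouse for each pair of tissues. The mice model juvenile myelomonocytic leukemia, and the study asked how such cells resist apoptosis, with its attention on the BCL-2 family. The comparison here asks how RNA of CD11b+ cells differs between the 2 organs of leukemic animals.

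MxCre;Ptpn11D61Y/+ mice carry 1 Ptpn11 allele with the D61Y substitution, which holds the phosphatase SHP2 in its active form, behind a Neo-Stop cassette. Poly I:C induces the Mx1 promoter and so Cre, which removes the cassette in hematopoietic cells, but also in other cells in which that promoter responds. All groups used here received poly I:C by the study's methods, although the labels list no treatment. The 8 control libraries of the same cells come from 2 genotypes, each with 2 BM and 2 spleen libraries: MxCre mice carry Cre and normal Ptpn11, and Ptpn11D61Y/+ mice carry the silenced allele without Cre. The controls thus differ from the S3 animals in Cre or in the allele, and in illness. The labels give no ages. By the study's methods the cells were isolated on magnetic columns (MACS) for CD11b, and the labels name MACS/FACS. CD11b is the integrin alpha-M chain that monocytes, neutrophils, many macrophages and some natural killer (NK) cells carry on their surface.

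The BM is where neutrophils and monocytes are made. Neutrophil precursors first fill primary granules with serine proteases and myeloperoxidase and later make secondary granules, so that RNA of the primary granule marks young cells. The spleen holds macrophages of the red pulp, which take up old erythrocytes and handle their iron, as well as dendritic cells that present antigen on MHC class II. In mice the spleen can also take up the making of erythrocytes and granulocytes, and it enlarges when it does so in leukemia. Where RNA of a bulk sample is compared, fewer cells of a type and less RNA per cell cannot be told apart.

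The 6 libraries held between 34992610 (BM, animal 815) and 80382578 counts (spleen, animal 640), and between 14761 and 22865 genes were detected. Itgam, which encodes CD11b itself, had 663, 176 and 947 CPM (counts scaled to library size with TMM factors) in the BM of animals 540, 815 and 640, and 702, 185 and 1665 CPM in their spleens. Its log2 fold change of 0.51 ± 0.64 (SE, n = 3 against 3) did not pass the test, with an adjusted p of 0.882. Every adjusted p below comes from the quasi-likelihood test of edgeR, adjusted by Benjamini-Hochberg over all genes tested, unless another tool is named. Test and SE take the spread within the 9 groups of all 21 libraries, which include stem and progenitor (LSK) cells. Lyz2, the lysozyme of myeloid cells, was at 2607 CPM or more in all 6 libraries. Of 12 genes of myeloid identity, none passed in either direction. Ptpn11 had 62.7, 26.3 and 119 CPM in the BM and 91.9, 59.8 and 140 CPM in the spleens, with a log2 fold change of 0.49 ± 0.47 and an adjusted p of 0.837. Gene counts do not separate the D61Y allele from the normal one.

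Libraries that share an animal number were checked with transcripts of the sex chromosomes before they were read as pairs. Xist, made from the inactive X chromosome of female cells, had 3154 counts in the BM and 3941 in the spleen of animal 815, where 4 Y-linked genes together had 0 and 1. In animal 640 the Y-linked genes had 11249 and 11677 counts and Xist 9 and 1. Animal 540 was not of a single sex by these transcripts: its BM library held 2780 counts of Xist and 958 of the Y-linked genes, its spleen library 712 and 4225. The 2 libraries labelled 540 thus hold RNA of both sexes, in different proportions, which goes against the label of 1 animal. Values without animal 540 are given for the calls and for most of the gene lists.

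The 3 animals also differed in how far their organs lay apart. Of genes at 3 log2 CPM or more, 5.09% differed by over 4-fold between spleen and BM in animal 540, 6.50% in animal 815 and 2.52% in animal 640. The spread within a tissue was wide, with a median SD over genes of 0.703 log2 CPM among the 3 spleens and 0.886 among the 3 BM libraries. Animal 640 stood apart in many gene groups described below.

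Of 19555 genes tested, 11 passed at an adjusted p under 0.05 (0.0563%), 5 higher in the spleen (0.0256%) and 6 higher in the BM, that is lower in the spleen (0.0307%). For these 11 genes the 3 spleen libraries and the 3 BM libraries did not overlap, which held for 925 genes with the spleens above (4.73%) and 525 with the spleens below (2.68%). At an unadjusted p under 0.05, 1068 genes were higher (5.46%) and 842 lower in the spleen (4.31%). Over all tested genes the log2 fold changes had a median of 0.094. With DESeq2, 267 genes were called higher (1.37%) and 284 lower (1.45%). When edgeR was fitted to the 14 CD11b+ libraries of S3 and control mice, or to the 6 alone, no gene passed. The calls depended on the animals: without animal 640 there were 505 higher (2.58%) and 211 lower (1.08%), and without animal 540 or without animal 815 there were none, although 1127 and 1046 genes had an unadjusted p under 0.05. With the animal as a block in edgeR, as the shared numbers allow, none of the 11 passed either. Adjusted p were 0.385 to 0.84 over the 14 CD11b+ libraries of S3 and control mice and 0.2 to 0.669 over the 6 libraries alone. In DESeq2 the block over the 6 libraries called 564 genes, 333 higher and 231 lower, with the 11 among them.

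**Figure D1:**
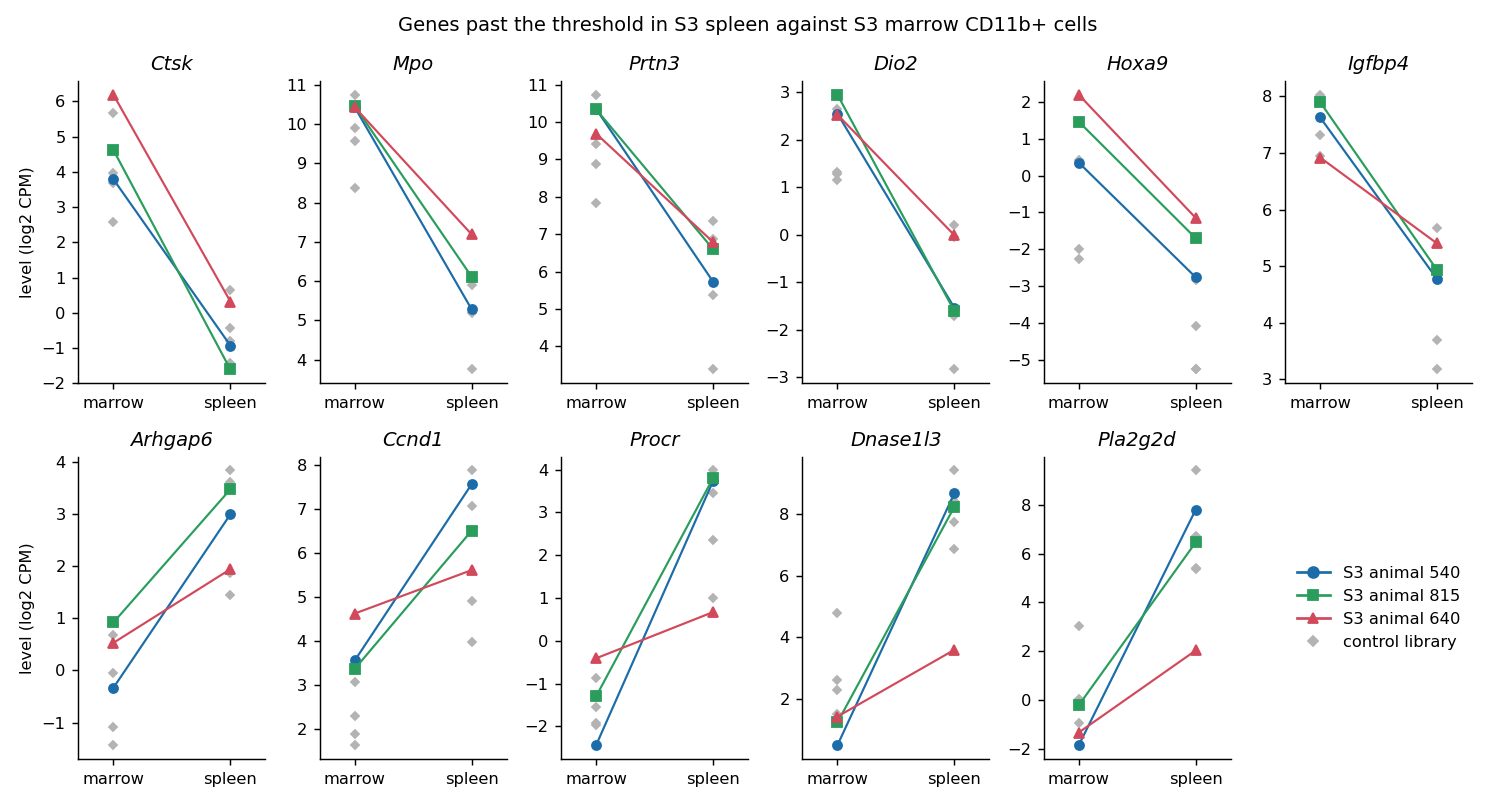
The 11 genes called between S3 spleen and S3 BM, 1 panel each, with log2 CPM on the vertical axis and tissue on the horizontal axis. Coloured lines join the BM and the spleen library of 1 S3 animal (540 blue circles, 815 green squares, 640 red triangles) and grey diamonds are the 8 control libraries. The 3 lines run the same way in every panel, and the line of animal 640 is the flattest for the 5 genes higher in the spleen.

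Among the genes lower in the spleen, 2 encode proteins of the primary granule. Mpo encodes myeloperoxidase, which makes hypochlorous acid from hydrogen peroxide, and lies at chr11:87793581-87804413 (GRCm38, plus strand). It had 1377, 1404 and 1382 CPM in the BM of animals 540, 815 and 640, and 38.9, 69 and 146 CPM in their spleens. All 3 BM libraries were near the same level and all 3 spleens were far below it. Its level was 16.4-fold lower in the spleen (log2 fold change -4.04 ± 0.60, adjusted p 0.0269). Prtn3, which encodes the serine protease proteinase 3 (chr10:79874476-79883174, plus strand), had 1308, 1299 and 828 CPM in the BM and 53.1, 97.3 and 110 CPM in the spleens. The groups were again far apart, and the change was 13.2-fold (log2 fold change -3.72 ± 0.63, adjusted p 0.0443). Mpo overlaps the predicted gene Gm11505 and Prtn3 overlaps Plppr3, both on the other strand, and how the counting treated strand is not given in the sources used here.

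Igfbp4, which encodes a protein that binds insulin-like growth factors, had the smallest adjusted p of all genes (chr11:99041244-99054392, plus strand). Its BM levels were 198, 239 and 121 CPM, and its spleen levels 27.3, 30.5 and 42.3 CPM. No spleen came near a BM library, and the level was 5.57-fold lower in the spleen (log2 fold change -2.48 ± 0.31, adjusted p 0.00775). The other 3 genes lower in the spleen were sparse, with a mean under 3 log2 CPM. Ctsk and Dio2 lie outside the rule for named genes and were named after their values were seen, whereas Hoxa9 comes under it as a stem and progenitor gene. Ctsk, the collagen-cleaving cathepsin K of osteoclasts (chr3:95499256-95509362, plus strand), had 13.8, 24.6 and 72.9 CPM in the BM and 0.499, 0.301 and 1.23 CPM in the spleen, a 54.3-fold lower level (log2 fold change -5.76 ± 0.81, adjusted p 0.022). Dio2, a deiodinase that activates thyroid hormone (chr12:90724552-90738438, minus strand), had 5.84, 7.71 and 5.73 CPM against 0.318, 0.301 and 0.966 CPM. Hoxa9, a homeobox factor of early hematopoietic cells (chr6:52223100-52231089, minus strand), had 1.24, 2.73 and 4.53 CPM against 0.121, 0.281 and 0.424 CPM. Dio2 was 12-fold and Hoxa9 10.2-fold lower in the spleen, each with an adjusted p of 0.03. Hoxa9 overlaps Mir196b on the same strand.

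Of the 5 genes higher in the spleen, Dnase1l3 and Ccnd1 fell under the rule. Dnase1l3 encodes a secreted nuclease of macrophages and dendritic cells that digests DNA on dying cells (chr14:7964533-7994573, minus strand). It had 1.38, 2.32 and 2.66 CPM in the BM of animals 540, 815 and 640 and 410, 301 and 12 CPM in their spleens. The spleen of animal 640 lay above all BM libraries but far below the other spleens. The fitted level was 114-fold higher in the spleen (log2 fold change 6.83 ± 1.08, adjusted p 0.03). Ccnd1 encodes cyclin D1, which drives cells from G1 into S phase and is a known output of ERK signalling (chr7:144929931-144939925, minus strand, overlapped by LTO1 on the other strand). Its BM levels were 11.7, 10.2 and 24.6 CPM and its spleen levels 190, 91.1 and 48.8 CPM, which made it 7.06-fold higher in the spleen (log2 fold change 2.82 ± 0.47, adjusted p 0.0443).

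Arhgap6, Procr and Pla2g2d were sparse in the BM. Arhgap6 and Pla2g2d were also named after their values were seen, and Procr is on the stem and progenitor list. Pla2g2d, a secreted phospholipase A2 of dendritic cells and macrophages (chr4:138775735-138782046, plus strand), had 0.249, 0.835 and 0.37 CPM in the BM and 224, 88.8 and 4.05 CPM in the spleen. Procr, the receptor of activated protein C, found on endothelium and on some stem cells (chr2:155751117-155755471, plus strand), had 0.158, 0.38 and 0.728 CPM against 13.2, 13.9 and 1.57 CPM. Arhgap6, a GTPase-activating protein for RhoA (chrX:168795099-169304435, plus strand), had 0.77, 1.86 and 1.42 CPM against 7.93, 11 and 3.82 CPM. The spleen of animal 640 was the lowest of the 3 spleens for all these genes. The fitted levels were 227-fold, 22-fold and 5.64-fold higher in the spleen, with adjusted p of 0.0443, 0.0491 and 0.0464.

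All 11 genes were called in the same direction by DESeq2, and without animal 640 in edgeR, with adjusted p of 0.00032 to 0.0137. With limma-voom 5 of the 11 were among 14 calls, and 9 of the 11 passed without a filter on low counts. With 10 or more counts required in every library compared, 9 passed. Hoxa9 (8 counts in the spleen of 540) and Procr (7 in the BM of 540) fell under that filter and were not tested. With RLE factors 7 passed and with library size alone 1. Each of the 11 was also called, in the same direction, between spleen and BM of the control mice. There 9.97% of all genes were called, and the control mice share no library with the S3 mice. Mpo had a log2 fold change of -4.54 there, Prtn3 -3.63, Igfbp4 -3.18, Ccnd1 3.78 and Dnase1l3 5.01.

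The primary granule list held 7 genes: the 2 above with the elastase Elane, cathepsin G (Ctsg), Ms4a3, Cst7 and Serpinb1a. All 7 had lower levels in all 3 spleens than in any BM library (2.68% of all genes). The count of 2 called lower stands beside 0.0307% of all genes. In that direction 6 had an unadjusted p under 0.05 (4.31% of all genes), and the median log2 fold change of the 7 was -3.39. DESeq2 called 5 of the 7 lower (1.45% of all genes), and without animal 640 edgeR called 5 (1.08%). Elane had 796, 304 and 558 CPM in the BM and 35.3, 46.8 and 76 CPM in the spleen (log2 fold change -3.39 ± 0.62, adjusted p 0.0736, not passing). Ctsg had 217, 103 and 404 CPM against 7.23, 6.34 and 35.7 CPM and did not pass either (adjusted p 0.0998). The summed level of the list was 4673, 3699 and 3812 CPM in the BM of animals 540, 815 and 640 and 545, 456 and 774 CPM in the spleens. The medians over the members were -4.50, -2.70 and -2.88 log2 CPM in the 3 animals. Without animal 540 the fitted median was -2.81 and none of the 7 passed.

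The promoters of Mpo, Prtn3 and Elane are shown because these genes moved together and the first 2 were called. RefSeq's promoter table (GRCm38.p6, 250 bases before to 50 bases after a start site) held 6 of the 7 genes. The letters GAGGAAGT, a core bound by the myeloid factors PU.1 and Spi-C, were searched on both strands and stand in capitals. They occurred in 3 of the 6 promoters (50%) and in 997 of 27025 promoters of the table (3.69%). The search in this list was chosen after the values were seen, on fewer called members than the 3 set as a minimum for it, and a match is not evidence of binding. The second motif searched, AGATAA, which GATA factors bind, was in none of the 6 and in 12.7% of all promoters. Among macrophage genes GAGGAAGT was in 1 of 12 promoters (8.33%) and AGATAA in none, and among erythroid genes GAGGAAGT was in none of 15 and AGATAA in 8 (53.3%). The match begins 224 bases before the start site in Mpo, 95 before it in Prtn3 and 85 before it in Elane, the latter 2 being neighbours on chromosome 10. The sequences run 5′ to 3′ on the plus strand, at chr11:87793534-87793833 for Mpo, chr10:79879417-79879716 for Prtn3 and chr10:79886062-79886361 for Elane.
Mpo: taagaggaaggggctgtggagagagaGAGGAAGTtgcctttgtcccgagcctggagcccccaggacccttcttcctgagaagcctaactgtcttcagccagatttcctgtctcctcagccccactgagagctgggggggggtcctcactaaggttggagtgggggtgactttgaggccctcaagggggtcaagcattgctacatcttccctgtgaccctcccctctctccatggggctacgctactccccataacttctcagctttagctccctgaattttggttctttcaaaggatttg
Prtn3: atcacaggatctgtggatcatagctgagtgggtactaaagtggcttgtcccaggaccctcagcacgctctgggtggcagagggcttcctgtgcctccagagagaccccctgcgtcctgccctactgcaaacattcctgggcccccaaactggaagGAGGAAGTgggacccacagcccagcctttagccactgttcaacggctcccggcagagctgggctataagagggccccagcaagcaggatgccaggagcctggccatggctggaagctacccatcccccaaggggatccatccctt
Elane: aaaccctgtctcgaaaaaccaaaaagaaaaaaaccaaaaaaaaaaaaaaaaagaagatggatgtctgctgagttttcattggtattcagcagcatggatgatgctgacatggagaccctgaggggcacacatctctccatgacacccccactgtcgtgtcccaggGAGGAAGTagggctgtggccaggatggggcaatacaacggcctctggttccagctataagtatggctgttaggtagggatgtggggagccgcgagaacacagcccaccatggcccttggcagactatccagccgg

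Later stages of the neutrophil did not separate the organs in this way. Of 12 secondary granule genes, such as Ltf, Camp and Ngp, none passed and the median log2 fold change was -0.70. At an unadjusted p under 0.05, 1 of them was lower in the spleen (4.31% of all genes). The medians of animals 540 and 815 were -0.55 and -1.32 log2 CPM, while that of animal 640 was 0.66, and the fitted median was -0.36 without animal 540. Ngp, the most abundant of them per kilobase, had 25744, 13918 and 9241 CPM in the BM and 17065, 5717 and 12300 CPM in the spleen. Cebpe, the factor needed to make secondary granules, had 464, 403 and 101 CPM against 178, 106 and 96.9 CPM (log2 fold change -1.34 ± 0.50, adjusted p 0.366). The BM of animal 640 lay within the range of the spleens for Cebpe. Of 12 genes of mature neutrophils none passed or had an unadjusted p under 0.05, with a median of -0.29. By animal the medians were 0.06, -1.19 and 0.78 log2 CPM for 540, 815 and 640. The fitted median was -0.43 without animal 540, 0.18 without animal 815 and -0.58 without animal 640. S100a9, an abundant calcium-binding protein of neutrophils, had 44903, 42570 and 8413 CPM in the BM and 34497, 16286 and 12005 CPM in the spleen (adjusted p 0.839).

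Of 8 classical monocyte genes none passed, with a median log2 fold change of -0.70. Ly6c2, the surface protein that marks them, had 1409, 826 and 662 CPM in the BM and 524, 306 and 268 CPM in the spleen, and Ccr2, the receptor by which they leave the BM, had 331, 368 and 189 CPM against 71.9, 115 and 144 CPM. Neither gene overlapped between the organs, yet the adjusted p were 0.403 and 0.455. The medians by animal were -1.78, -1.06 and -0.12 log2 CPM for 540, 815 and 640, and the fitted median was -0.26 without 540 and -1.71 without 640. Csf1r, the receptor of macrophage colony-stimulating factor, went the other way (log2 fold change 1.21, adjusted p 0.567). All 8 genes of patrolling monocytes had a positive log2 fold change, with a median of 0.99, but none passed. By animal the medians were 1.53, 2.69 and 0.22 log2 CPM, and the fitted median was 0.70 without animal 540 and 2.14 without animal 640. Eno3 and Treml4 had the smallest p of these, with log2 fold changes of 2.14 and 2.01 and adjusted p of 0.21 and 0.231.

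Markers of tissue macrophages were higher in the spleens of all 3 animals. Each of the 18 listed genes was higher in the spleen than in the BM of the same animal, which held for 18.8% of all genes. For 16 of the 18 the 3 spleens lay above all 3 BM libraries (4.73% of all genes). At an unadjusted p under 0.05, 13 of the 18 were higher (5.46% of all genes). None passed adjustment over all genes in edgeR, whereas DESeq2 called 5 higher (1.37% of all genes) and edgeR without animal 640 called 3 (2.58% of all genes). The median log2 fold change was 2.12, and by animal it was 2.52, 2.46 and 1.09 log2 CPM for 540, 815 and 640. Without animal 540 the fitted median was 1.91. The summed level was 3659, 3173 and 5545 CPM in the BM and 15351, 15434 and 8345 CPM in the spleens, so that the BM of animal 640 was the highest BM and its spleen the lowest spleen.

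Marco, a scavenger receptor of marginal zone macrophages, had 0.226, 0 and 0.751 CPM in the BM and 47.2, 122 and 18.1 CPM in the spleen. Every spleen was far above every BM library, and the fold change missed the threshold (log2 fold change 7.41 ± 1.34, adjusted p 0.0782). Cd209b, a lectin of the same cells, had 0 counts in all 3 BM libraries and 4.48, 3.97 and 0.0236 CPM in the spleens. Against a floor of 3 counts per BM library its fold is bounded from below by a log2 value of 5.29, and the last of the 3 spleens was itself at the floor. Timd4, which binds phosphatidylserine on dying cells, had 0.724, 0 and 0.555 CPM in the BM against 18.5, 18.9 and 1.36 CPM. Slc40a1, the iron exporter ferroportin, had 86.4, 57.9 and 30 CPM in the BM and 382, 322 and 126 CPM in the spleen (log2 fold change 2.25 ± 0.66, adjusted p 0.219). Spic, the transcription factor of red pulp macrophages, had 12.6, 18.9 and 43.4 CPM against 147, 176 and 144 CPM (log2 fold change 2.64 ± 0.82, adjusted p 0.245). C1qa, a chain of complement C1q and the most abundant member per kilobase, overlapped between the organs, with 467, 1009 and 638 CPM in the BM and 2051, 3097 and 892 CPM in the spleen. Of 18 genes of iron and heme handling, 5 had an unadjusted p under 0.05, all of them higher in the spleen (5.46% of all genes). The median of the list was 0.64.

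**Figure D2:**
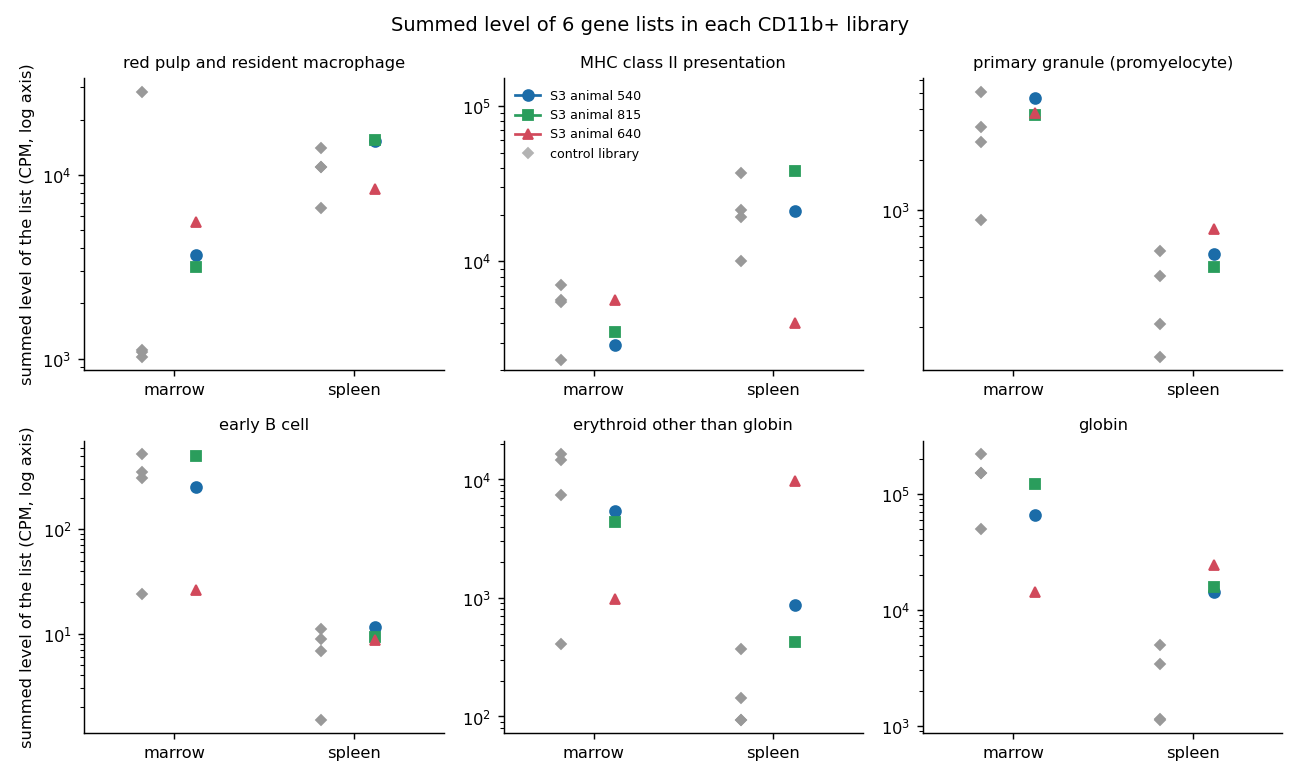
Summed CPM of 6 gene lists in each CD11b+ library, on a log axis, with S3 animals coloured as before and control libraries in grey. The macrophage sum is higher and the primary granule sum lower in the spleen of all 3 S3 animals. For MHC class II, the erythroid genes and globin, the spleen of 640 lies to the other side of its BM than in 540 and 815.

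The genes of MHC class II presentation differed between the animals. All 10 listed had an unadjusted p under 0.05 and a higher fitted level in the spleen (5.46% of all genes). Their median log2 fold change was 2.39, and none passed adjustment. By animal the medians were 2.77, 3.95 and -0.47 log2 CPM for 540, 815 and 640, and for none of the 10 did the organs separate. Cd74, the invariant chain and the most abundant member per kilobase, had 1397, 1827 and 2426 CPM in the BM and 9417, 17610 and 1702 CPM in the spleen. In animal 640 the spleen was thus below its own BM. The log2 fold change was 2.35 ± 0.64 with an adjusted p of 0.187, and 3.01 with an adjusted p of 0.0128 without animal 640. Ciita, the master activator of these genes, had 5.52, 4.93 and 48.1 CPM in the BM against 141, 96 and 46.3 CPM, so that the BM of animal 640 was at the level of its spleen. DESeq2 called 7 of the 10 (1.37% of all genes) and edgeR without animal 640 called 9 (2.58% of all genes), all higher. Without animal 540 the median was 2.25 and none passed, and without animal 815 it was 1.55.

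Of 12 genes of conventional dendritic cells, 7 had an unadjusted p under 0.05, all higher in the spleen (5.46% of all genes). The median of the list was 1.84. By animal the medians were 2.09, 2.48 and 0.12 log2 CPM, and the fitted median was 1.59 without animal 540 and 1.12 without animal 815. Without animal 640 it was 2.38 and edgeR called 5 higher (2.58% of all genes), while none passed with all animals. DESeq2 called 2 higher (1.37% of all genes). Clec4a4, a lectin of the CD11b+ dendritic cells of the spleen, had 0.226, 0 and 1.07 CPM in the BM and 12.7, 21.8 and 1.2 CPM in the spleen. Zbtb46, a factor that marks the lineage, had 3.96, 5.62 and 5.12 CPM against 25, 71.9 and 10.7 CPM. Neither overlapped, and their adjusted p were 0.138 and 0.145. Plasmacytoid dendritic cell genes lay the other way, with a median of -2.32. Of these 6 genes, 4 were lower in the spleen at an unadjusted p under 0.05 (4.31% of all genes). None of them passed adjustment.

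Lymphoid RNA was also present in these CD11b+ isolates. Genes of early B cells, which are made in the BM, had a median log2 fold change of -5.24. All 8 were lower at an unadjusted p under 0.05 (4.31% of all genes), though none passed adjustment. DESeq2 called 7 of them lower (1.45% of all genes), and edgeR without animal 640 called 6 (1.08%). Their summed level was 253 and 499 CPM in the BM of animals 540 and 815 but 26.3 CPM in that of animal 640, and 11.6, 9.23 and 8.62 CPM in the spleens. The medians by animal were -4.89, -7.25 and 0.31 log2 CPM, with 5 of the 8 genes higher in the spleen of animal 640, where Il7r made up most of the BM sum. Dntt, the terminal transferase, had 73.4, 122 and 2.89 CPM against 1.42, 0.802 and 0.978 CPM (log2 fold change -5.95 ± 1.25, adjusted p 0.0999). Il7r, the interleukin-7 receptor, had 8.35, 8.88 and 18.4 CPM against 1.56, 2.27 and 2.57 CPM (log2 fold change -2.48 ± 0.47, adjusted p 0.0762). T cell genes had lower fitted levels in the spleen as well, though none passed adjustment. At an unadjusted p under 0.05, 9 of 12 were lower (4.31% of all genes). For 11 of 12 the organs did not overlap (2.68% of all genes), and the median was -2.45. DESeq2 called 5 of the T cell genes lower (1.45% of all genes), and edgeR without animal 640 called none (1.08% of all genes). Trbc2, the most abundant of them per kilobase, had 20.9, 34.3 and 33.6 CPM in the BM and 3.59, 10.5 and 1.6 CPM in the spleen. The medians by animal were -1.95, -1.58 and -4.37 log2 CPM, so that here animal 640 differed most. Without animal 540 the median was -2.77 for T cell genes and -5.12 for early B cell genes.

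For NK cells, 5 of 12 genes were lower in the spleen at an unadjusted p under 0.05 (4.31% of all genes). None passed adjustment, and the median was -2.39. The animals had medians of -0.97, -0.50 and -3.43 log2 CPM, and the fitted median was -2.45 without animal 540 and -1.14 without animal 640. Nkg7, a granule protein of NK and T cells, had 88.4, 61.5 and 94.1 CPM in the BM and 8.25, 12.3 and 12.7 CPM in the spleen and missed the threshold (log2 fold change -2.88 ± 0.53, adjusted p 0.0736). Lat, an adaptor of the T cell receptor, had 21.9, 35.6 and 45.5 CPM against 3.68, 9.61 and 2.84 CPM (adjusted p 0.0762). Both genes separated the organs fully. Of the 13 B cell genes, Cd22 alone had an unadjusted p under 0.05 (log2 fold change 2.13, beside 5.46% of all genes higher). The medians by animal were 1.52, 1.41 and -3.10 log2 CPM. The fitted median of 0.61 became -0.02 without animal 540. Igkc, the kappa light chain and the most abundant of them per kilobase, had 1691, 3663 and 1696 CPM in the BM and 1903, 1691 and 235 CPM in the spleen. Plasma cell genes had a median of -0.23, and of -0.56 without animal 540.

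Among eosinophil genes, Prg2, the major basic protein, had 1984, 2673 and 773 CPM in the BM and 277, 344 and 120 CPM in the spleen (log2 fold change -2.88 ± 0.64, adjusted p 0.11). Ccr3, the eotaxin receptor of the mature cell, went the other way with 6.93, 11.2 and 1.18 CPM against 53.3, 77.6 and 9.83 CPM (log2 fold change 2.87 ± 0.94, adjusted p 0.289). In each animal Prg2 was lower and Ccr3 higher in the spleen. At an unadjusted p under 0.05, 1 of the 7 listed genes was higher (5.46% of all genes) and 4 were lower (4.31%). Basophil and mast cell genes had a median of -0.80, megakaryocyte and platelet genes of -0.10, and genes of endothelium and stroma of -1.51, with 0, 0 and 0 called. The stromal median moved to -2.51 without animal 540 and to 0.00 without animal 640, with medians by animal of 1.25, -0.44 and -2.27 log2 CPM. That of basophil and mast cell genes moved to -0.18 without animal 540, and that of megakaryocyte genes to 0.65 without animal 815. Of 18 stromal genes, 5 were lower at an unadjusted p under 0.05 (4.31% of all genes), among them Col1a1 and Cxcl12. Stromal cells of the BM make both. Without animal 640 the log2 fold change of Col1a1 was 0.06 in place of -2.71. Of 12 stem and progenitor genes, Procr was called higher (0.0256% of all genes) and Hoxa9 lower in the spleen (0.0307%), and Cd34 had 5.05, 17.3 and 6.16 CPM in the BM against 1.1, 5.26 and 0.954 CPM (adjusted p 0.272).

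Erythroid transcripts ran in opposite directions in the 3 animals. For 21 of 22 listed genes other than globins that were tested, the median spleen minus BM difference was -2.82 log2 CPM in animal 540, -3.97 in animal 815 and 4.37 in animal 640. The fitted median was -0.09, and no member had an unadjusted p under 0.05. Without animal 540 the median was 0.95 and without animal 640 it was -3.38. Slc4a1, the anion exchanger band 3 and the most abundant of them per kilobase, had 1127, 1090 and 197 CPM in the BM and 142, 79.1 and 3265 CPM in the spleen. The spleen of animal 640 was the highest of the 6 libraries and its BM lay between. The summed level of the list was 5459, 4357 and 977 CPM in the BM and 873, 427 and 9684 CPM in the spleens. The sums of the 4 globin genes ran the same way by animal, with 65438, 122836 and 14177 CPM in the BM and 14127, 15704 and 24304 CPM in the spleens. Their fitted median was -1.97, and 3 of the 4 were lower in the spleen at an unadjusted p under 0.05 (4.31% of all genes). None passed adjustment in edgeR, and DESeq2 called 1 lower (1.45% of all genes). CD11b is not a protein of erythroid cells, and the part of these cells in other results was not tested.

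Genes of the cell cycle had medians below 0 in animals 540 and 815 and above 0 in animal 640. S phase genes had medians of -1.44, -1.04 and 0.66 log2 CPM and G2/M genes of -1.84, -1.40 and 0.77 in animals 540, 815 and 640. An unadjusted p under 0.05 held for 1 of 42 S phase genes and 9 of 52 G2/M genes, all lower in the spleen. Of all genes, 4.31% were lower at that p, and none of the listed genes passed adjustment. Their fitted medians of -0.38 and -0.67 became 0.01 and -0.11 without animal 540 and -1.27 and -1.72 without animal 640. Birc5, survivin, which acts in chromosome segregation and inhibits apoptosis, had 625, 1682 and 75 CPM in the BM and 90.6, 187 and 124 CPM in the spleen (log2 fold change -2.57 ± 0.79, adjusted p 0.238). Without animal 640 its adjusted p was 0.0341. Cdca7, a MYC-responsive gene, had 145, 201 and 55.7 CPM against 40.3, 49.3 and 43.3 CPM, with no overlap (adjusted p 0.17).

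**Figure D3:**
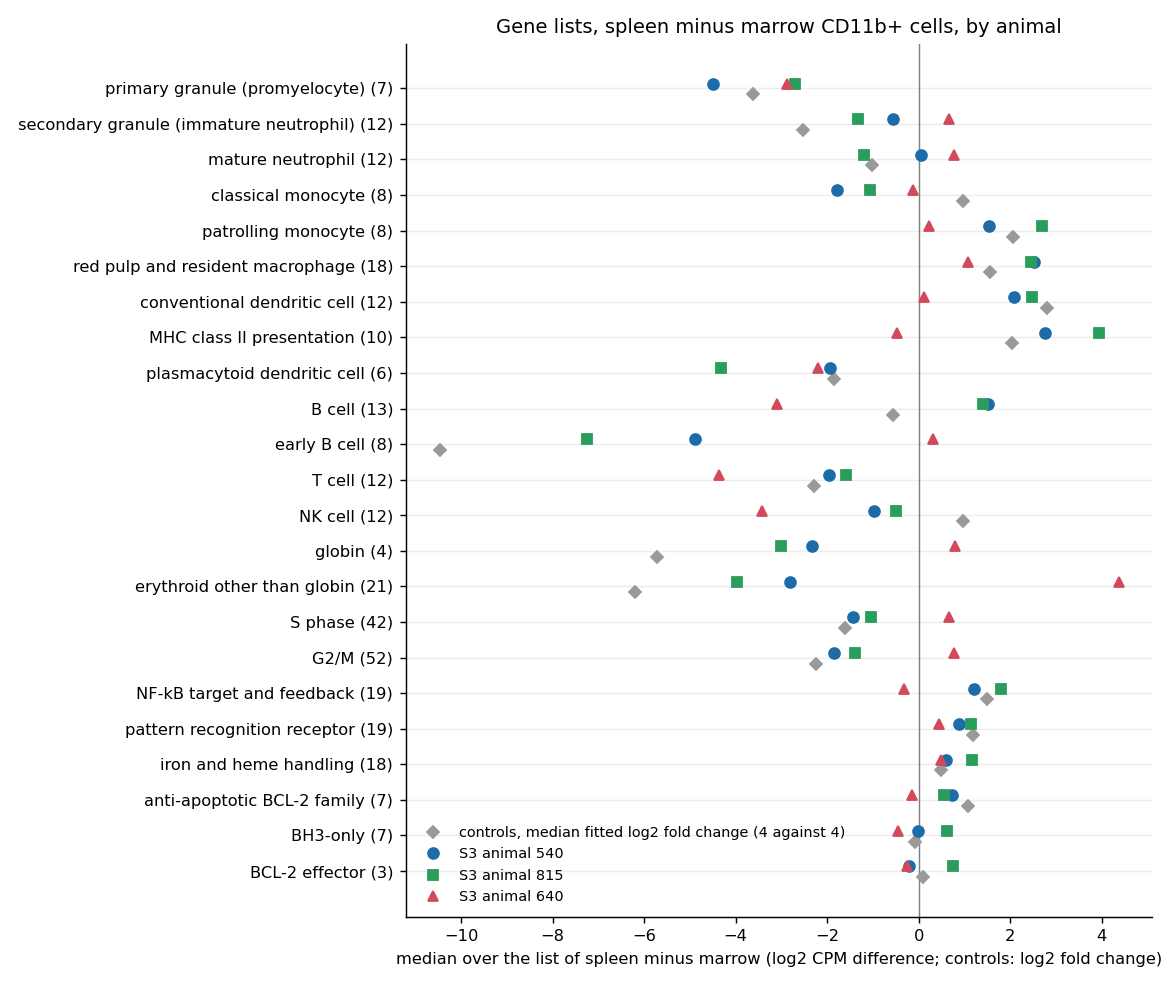
Median spleen minus BM difference (log2 CPM, horizontal axis) of 23 gene lists, with the number of genes tested in parentheses. Coloured symbols are the 3 S3 animals and grey diamonds are the median fitted log2 fold change of the list in the controls (4 against 4 libraries). The primary granule list is negative and the macrophage list positive in all 3 S3 animals, while for the erythroid list animal 640 stands at 4.37 and the other S3 animals at -2.82 and -3.97. The control value of the early B cell list rests on members at 0 counts in the control spleens and has no fixed size.

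The BCL-2 family sets the threshold of apoptosis at the mitochondrion. Its anti-apoptotic members hold back the pore formers BAX and BAK, and BH3-only proteins bind and neutralise them or act on the pore formers. Of 7 anti-apoptotic genes tested, none passed, and the median log2 fold change was 0.16. An unadjusted p under 0.05 was found for 3, all higher in the spleen (5.46% of all genes). These 3 are copies of Bcl2a1. Bcl2a1d had 16.4, 22.5 and 50.1 CPM in the BM of animals 540, 815 and 640 and 149, 337 and 42.1 CPM in their spleens, so that animal 640 had less in the spleen than in the BM (log2 fold change 2.57 ± 0.68, adjusted p 0.17). Bcl2a1a had 8.01, 7.4 and 25.9 CPM against 85.1, 128 and 29.4 CPM, with no overlap (2.55 ± 0.72, adjusted p 0.204). Bcl2a1b had 4.37, 5.58 and 9.34 CPM against 39.5, 109 and 8.71 CPM (3.02 ± 0.85, adjusted p 0.203). The transcripts of the copies share sequence, since 43.5%, 31.1% and 54.7% of all windows of 100 bases in Bcl2a1a, Bcl2a1b and Bcl2a1d occur unchanged in another of the 3. How reads were divided among them is therefore uncertain. DESeq2 called all 3 higher (1.37% of all genes).

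Bcl2l1, which encodes BCL-XL, had 273, 386 and 65.6 CPM in the BM and 79.8, 70.4 and 184 CPM in the spleen. It was lower in the spleen of animals 540 and 815 and higher in that of 640, as the erythroid genes were (log2 fold change -1.11 ± 0.54, adjusted p 0.53, and -2.19 with an adjusted p of 0.0186 without animal 640). Mcl1, needed for the survival of many myeloid cells, was the most abundant of the list per kilobase and near even, with 797, 696 and 685 CPM in the BM and 817, 994 and 616 CPM in the spleen. Its log2 fold change was 0.16 with an approximate 95% interval of -0.60 to 0.91. This interval and those below use a normal quantile on the SE. They are narrower than intervals that allow for the limited degrees of freedom. Bcl2 had 19.4, 21.7 and 29.6 CPM against 26.8, 28 and 12.9 CPM (log2 fold change -0.06, interval -0.79 to 0.66). Bcl2l2, which encodes BCL-W, had a log2 fold change of 0.07 with an interval of -0.91 to 1.04. Bcl2l10 had 0 counts in the 6 libraries and was not tested.

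Of 7 BH3-only genes tested, Pmaip1, which encodes NOXA, was the one with an unadjusted p under 0.05, higher in the spleen (5.46% of all genes). It had 94.3, 78.2 and 154 CPM in the BM and 230, 646 and 97.7 CPM in the spleen (log2 fold change 1.58 ± 0.70, adjusted p 0.472). The log2 fold changes of the other 6 were -1.63 for Bik, 0.79 for Bmf, -0.48 for Bid, 0.52 for Bcl2l11 (BIM), -0.11 for Bbc3 (PUMA) and -0.02 for Bad, with adjusted p of 0.604 to 0.999. Hrk had 0 counts. Of the effectors, Bax had 99.7, 71.8 and 83.2 CPM in the BM and 139, 170 and 82.7 CPM in the spleen (log2 fold change 0.62 ± 0.26, adjusted p 0.434). Bok had a log2 fold change of -1.88 at no more than 4.37 CPM in any library, and Bak1 of 0.09. The fitted medians of the anti-apoptotic, BH3-only and effector genes were 0.22, -0.02 and 0.30 without animal 540, and 0.61, 0.18 and 0.16 without animal 640. Without animal 815 they were -0.03, -0.11 and -0.23, so that the anti-apoptotic and effector medians changed sign. In the control mice 4 anti-apoptotic genes were called higher in the spleen (4.13% of all genes), namely the 3 copies of Bcl2a1 and Bcl2, and Bcl2l1 was called lower (5.83% of all genes). Of the 7 BH3-only genes 3 were called higher and 1 lower there, and no effector was called.

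**Figure D4:**
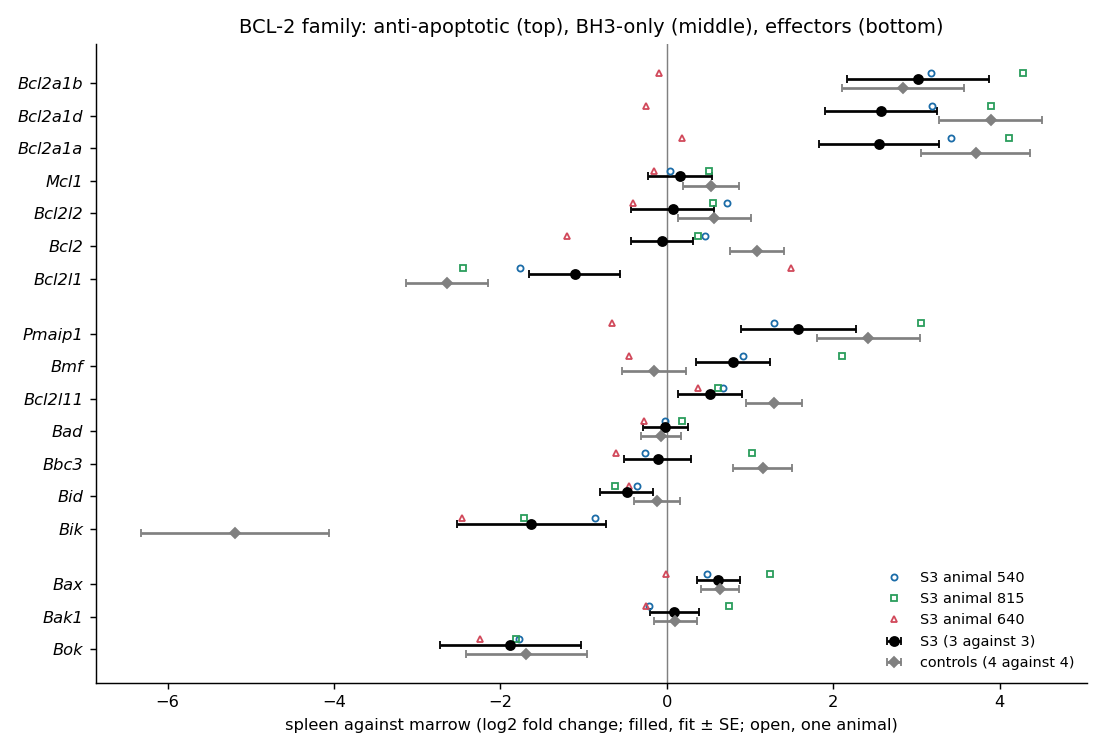
Spleen minus BM log2 fold change of 17 BCL-2 family genes, with the fitted value and its SE for S3 (black, 3 against 3 libraries) and for the control mice (grey, 4 against 4). Open symbols are single S3 animals. The 3 copies of Bcl2a1 have the highest S3 values, 2.55 to 3.02, with animal 640 near 0, and Bcl2l1 lies below 0 in animals 540 and 815 and above it in 640.

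NF-kB targets and feedback genes had a median log2 fold change of 0.91. Of the 19, 8 had an unadjusted p under 0.05, all higher in the spleen (5.46% of all genes), and none passed. By animal the medians were 1.21, 1.80 and -0.33 log2 CPM, and the fitted median was 0.59 without animal 540 and 1.38 without animal 640. Relb, a subunit of the alternative NF-kB pathway, had 25.3, 19.5 and 61.1 CPM in the BM and 197, 239 and 48.5 CPM in the spleen (log2 fold change 2.19 ± 0.49, adjusted p 0.112). Traf1, an adaptor of TNF receptors, had 15.1, 12.1 and 86.6 CPM against 198, 297 and 33.6 CPM. In animal 640 both were lower in the spleen than in the BM, and without that animal 8 of the list were called higher, beside 2.58% of all genes. Tnf itself had 39.3, 47.5 and 147 CPM in the BM and 66, 91.8 and 182 CPM in the spleen, higher in the spleen of each animal but with overlap between the organs (log2 fold change 0.54 ± 0.71, adjusted p 0.891).

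Of 17 chemokines, 4 had an unadjusted p under 0.05, all higher in the spleen (5.46% of all genes). They were Ccl22, Cxcl9, Ccl12 and Ccl24, with log2 fold changes of 3.31, 3.50, 2.68 and 2.29. The median of the list was 0.81, and it was 0.42 without animal 540 and 1.46 without animal 640. Cxcl9, which draws activated T cells, had 1.88, 8.35 and 1.57 CPM in the BM and 72.1, 54.9 and 5.17 CPM in the spleen. The 18 cytokines had a median of 0.59, 10 of them positive and 8 negative. At an unadjusted p under 0.05, 1 was higher (5.46% of all genes) and 1 lower (4.31%). Spp1, osteopontin, had 21.4, 15.3 and 286 CPM in the BM and 8.29, 6.54 and 45.4 CPM in the spleen (log2 fold change -2.42 ± 0.97, adjusted p 0.41). Without the BM library of animal 640 it stood at 0.13. Il18 had 5.68, 10.9 and 2.25 CPM against 50.9, 68.1 and 6.65 CPM (log2 fold change 2.75 ± 0.85, adjusted p 0.246). Il1b, the most abundant cytokine per kilobase, had 259, 276 and 153 CPM in the BM and 765, 779 and 294 CPM in the spleen. The 3 spleens lay above all BM libraries for Il1b, with an adjusted p of 0.621. All 19 receptors of microbial patterns had a positive log2 fold change, with a median of 0.62. Of these, 6 had an unadjusted p under 0.05 (5.46% of all genes higher). Tlr7, the endosomal receptor of single-stranded RNA, had 15.1, 17.5 and 23.3 CPM in the BM and 38.3, 42.3 and 28.6 CPM in the spleen (adjusted p 0.279).

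Outputs and feedback genes of the ERK pathway, which active SHP2 feeds through RAS, numbered 15, of which Ccnd1 was called higher (0.0256% of all genes) and none lower. Spry2 had 10.3, 12.6 and 18.3 CPM in the BM and 4.57, 3.19 and 3.29 CPM in the spleen, with no overlap (log2 fold change -1.90 ± 0.39, adjusted p 0.0934). Spry2 encodes a feedback inhibitor of RAS-ERK signalling. Epha2, a receptor kinase, had a log2 fold change of -3.25 and the ETS factor Etv5 of 1.66, with adjusted p of 0.129 and 0.225. The median of the 15 genes was -0.09, that without animal 540 was -0.28 and that without animal 640 was 1.14, and Dusp6, the most abundant of them per kilobase, stood at -0.56. Of 29 genes of SHP2 and the RAS pathway none passed, with a median of 0.22. Rasa2, a RAS GTPase-activating protein, had 59.2, 74.8 and 42.1 CPM in the BM and 32.1, 30.1 and 37.6 CPM in the spleen (log2 fold change -0.82 ± 0.23, adjusted p 0.202).

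Smaller groups are given by their medians. Interferon-stimulated genes had a median of 0.29. At an unadjusted p under 0.05, 3 of 27 were higher (5.46% of all genes) and 1 lower (4.31%). Gbp5 (1.97) and Rsad2 (-1.82) were among them. Immediate-early genes had a median of 0.39, which was 0.44 without animal 540 and 0.80 without animal 640, and heat shock and dissociation genes of 0.49, with 1 and 0 at an unadjusted p under 0.05. Adhesion genes had a median of 0.30: Itga1, the collagen-binding integrin chain, was lower in all 3 spleens (-2.29, adjusted p 0.16). Receptors for chemokines and homing had a median of -0.05 (-0.22 without animal 540), hypoxia and glycolysis genes of 0.03 and cholesterol and lipid genes of 0.10. Runx1, a factor of hematopoiesis, had 63.2, 49.8 and 78.4 CPM in the BM and 50.8, 51.8 and 74.8 CPM in the spleen. Its log2 fold change was -0.11, with an approximate 95% interval of -0.61 to 0.39.

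Further genes of the rule, which did not pass, were higher in all 3 spleens than in all 3 BM libraries. Il4i1, an amino acid oxidase of antigen-presenting cells that overlaps Nup62 on the same strand, had 6.2, 6.57 and 9.12 CPM in the BM and 105, 185 and 9.26 CPM in the spleen, so that animal 640 hardly differed (log2 fold change 3.77 ± 0.69, adjusted p 0.0736). Clstn1 had 4.71, 5.16 and 8.14 CPM against 23.4, 20.7 and 23 CPM and was alike in the 3 spleens (1.89 ± 0.38, adjusted p 0.0872). P2ry13, a receptor for ADP, Cd38, an enzyme that consumes NAD, and the plexin Plxnc1 had log2 fold changes of 2.90, 1.71 and 1.16, with adjusted p of 0.0883 to 0.0998. In the other direction Hal, histidine ammonia-lyase, had 41.8, 34.2 and 8.76 CPM in the BM and 4, 1.79 and 5.5 CPM in the spleen (-2.91 ± 0.59, adjusted p 0.0883). Ms4a3, a marker of granulocyte and monocyte progenitors from the primary granule list, had 211, 187 and 231 CPM against 32.4, 40.5 and 57 CPM (-2.28 ± 0.47, adjusted p 0.0914).

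Between spleen and BM of the 8 control libraries 1949 genes were called (9.97%), 808 higher in the spleen (4.13%) and 1141 lower (5.83%). The 2 comparisons share no library, but the controls have 4 against 4. Of the 808 genes, 734 (90.8%) had a higher fitted level in the S3 spleen too. At an unadjusted p under 0.05, 389 of the 808 were higher (5.46% of all genes) and 3 lower (4.31%). The median log2 fold change of the 808 was 1.14 in S3 and 2.71 in the controls, and that of all genes was 0.094 in S3. Of the 1141 genes, 961 (84.2%) were lower in the S3 spleen, with medians of -0.65 and -2.62. At an unadjusted p under 0.05, 285 of the 1141 were lower (4.31% of all genes) and 3 higher (5.46%). The control genes were selected for their control values, so that their control medians are described, not tested. The control BM libraries were not alike: in MxCre replicate 1 the macrophage genes summed to 28330 CPM, above every spleen library, against 1024 to 1111 CPM in the other 3, and the erythroid genes other than globins to 409 CPM against 7422 to 16279 CPM. Without that library 3236 genes were called in the controls.

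**Figure D5:**
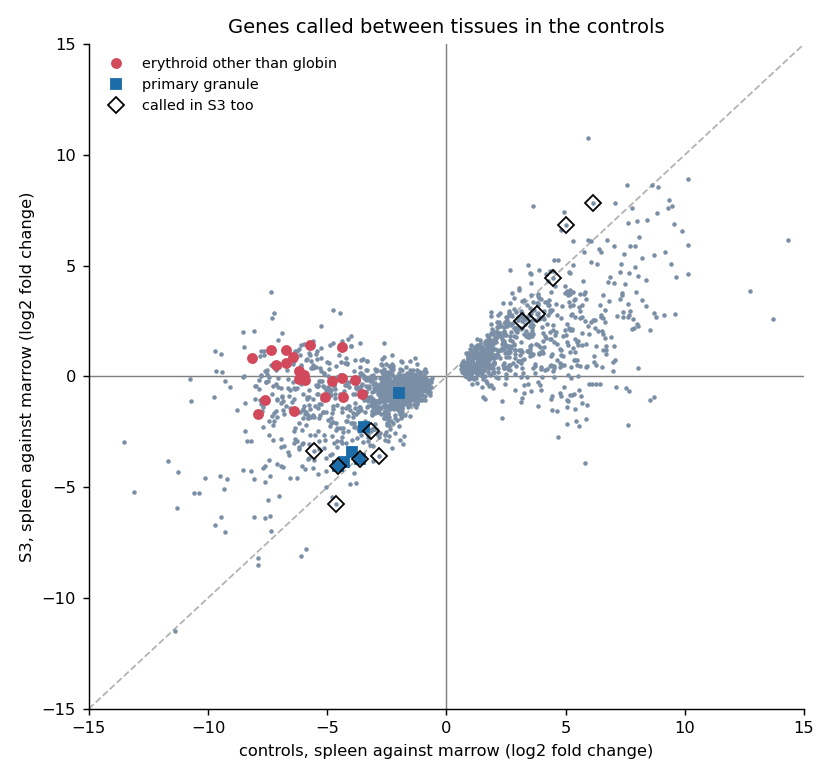
Spleen minus BM log2 fold change in the controls (horizontal axis) and in S3 (vertical axis) of the 1949 genes called in the controls, which were selected on the horizontal axis. The dashed line marks equal values, erythroid genes are red, primary granule genes blue and the 11 genes called in S3 are open diamonds. Most points lie in the quadrants of equal sign and nearer to 0 in S3, and the erythroid genes spread around 0 in S3.

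Whether the organs differed to another degree in S3 than in control mice was tested as a difference of the 2 contrasts. No gene passed in edgeR or with limma's voom (0%), 897 had an unadjusted p under 0.05 with a higher value in S3 (4.59%) and 534 with a lower one (2.73%), and DESeq2 called 175 higher (0.895%) and 88 lower (0.45%). The median of the difference over all genes was 0.039. All 21 erythroid genes were among those with a higher value in S3 at an unadjusted p under 0.05, with a median difference of 6.07. The control median was -6.20 and that of S3 -0.09, which became -3.38 without animal 640, nearer to the controls. DESeq2 called 15 of them (0.895% of all genes). For the 4 globin genes the median difference was 3.76. All 4 had an unadjusted p under 0.05 (4.59% of all genes), and DESeq2 called 3 (0.895%). For the primary granule genes the control median was -3.63 beside -3.39 in S3, and for macrophage genes 1.56 beside 2.12. The macrophage sum was 28330 CPM in the BM of MxCre replicate 1 and 1024 to 1111 CPM in the other control BM libraries. In the control spleens it was 6594 to 14015 CPM. That BM library thus runs against the other controls, and the 2 macrophage medians are not ranked. The other lists with 5 or more genes higher in S3 at an unadjusted p under 0.05, beside 4.59% of all genes, were early B cell genes (5 of 8), secondary granule genes (5 of 12, median difference 1.76), S phase genes (10 of 42, median difference 1.10), G2/M genes (14 of 52, median difference 1.43) and iron and heme genes (5 of 18, median difference 0.43). The secondary granule sums of the control spleens differed by genotype, with 32738 and 46225 CPM in MxCre and 2915 and 3800 CPM in Ptpn11D61Y/+ mice. Those of the S3 spleens were 49313, 21769 and 27520 CPM for animals 540, 815 and 640. Without animal 640 the S3 medians were -1.27 for S phase and -1.72 for G2/M genes, beside control medians of -1.60 and -2.24. DESeq2 called 2 of the early B cell genes (0.895% of all genes). Rag1 and Rag2 had 0 counts in all 4 control spleens, and 5, 4, 4 and 3 of the 8 early B cell genes were at 0 there, so that no size is given for their difference.

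Hbb-bs, a beta-globin gene, had 22312, 14307 and 6541 CPM in the S3 BM and 5972, 4450 and 10966 CPM in the S3 spleens. The control libraries had 8327 to 70326 CPM in the BM and 376 to 1776 CPM in the spleen. All 3 S3 spleens were above all control spleens, and the difference of the contrasts was 4.82 ± 0.94 with an adjusted p of 0.311 (6.74e-05 in DESeq2). Bpgm, which makes the bisphosphoglycerate that regulates oxygen release in erythrocytes, had 411, 292 and 164 CPM in the S3 BM and 146, 99.6 and 304 CPM in the S3 spleens, against 111 to 2110 and 12.6 to 88 CPM in the controls (difference 4.31 ± 0.83, adjusted p 0.311). Ctsf, cathepsin F, had 9.69, 16.2 and 5.27 CPM in the S3 BM and 12.6, 16.7 and 19.9 CPM in the S3 spleens. In the controls it had 35.5 to 72.3 CPM in the BM and 5.94 to 23.5 CPM in the spleen, so that S3 and control libraries did not overlap in the BM and overlapped in the spleen (difference 2.53 ± 0.51, adjusted p 0.311).

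In the other direction Ahnak, a large scaffold protein, was lower in the S3 spleens, with 145, 241 and 487 CPM in the BM and 100, 79.3 and 112 CPM in the spleen, whereas the controls had 71.3 to 161 CPM in the BM and 212 to 312 CPM in the spleen. The difference was -2.63 ± 0.50, with an adjusted p of 0.311 (0.0003 in DESeq2). Ifrd1 had 97.6, 94.2 and 120 CPM in the S3 BM and 82.7, 90.5 and 58.4 CPM in the S3 spleens, against 76.6 to 365 and 114 to 1396 CPM in the controls (difference -2.21 ± 0.51, adjusted p 0.314). Tnfrsf26, a decoy receptor of the TNF family, had 13.4, 16.4 and 18.2 CPM in the S3 BM and 5.98, 5.9 and 6.4 CPM in the S3 spleen, while the controls had 7.61 to 14.4 CPM in the BM and 4.91 to 40.6 CPM in the spleen and overlapped with S3. The 2 control genotypes lay on opposite sides for Tnfrsf26, with log2 fold changes of 1.55 in MxCre and -1.24 in Ptpn11D61Y/+ mice beside -1.39 in S3 (difference from their mean -1.55 ± 0.40, adjusted p 0.331). Among NK genes the median was 0.97 in the controls and -2.39 in S3, with 5 of 12 lower in S3 at an unadjusted p under 0.05 (2.73% of all genes) and 2 called by DESeq2 (0.45%). The control BM libraries were unlike in these genes, with 5 of 12 at 0 counts and a sum of 19.2 CPM in MxCre replicate 1 against 116 to 144 CPM in the other 3. Eomes, a factor of NK cells, had 2.26, 5.12 and 33.7 CPM in the S3 BM and 0.484, 0.662 and 0.672 CPM in the S3 spleen. In the controls it had 0 counts in the BM of MxCre replicate 1, 2.33 to 9.13 CPM in the other BM libraries and 0.719 to 7.27 CPM in the spleens, and the difference did not pass (adjusted p 0.415).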

How the data were processed

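As deposited by the authors, every library has its own file of raw, unnormalized counts for 45706 Ensembl genes. Per the methods of the study and the submitters' processing notes, they used RNA of the RNeasy Micro kit, paired-end reads (bcl2fastq 2.20.0.422, FastQC 0.11.9, Trim Galore 0.6.5) and STAR 2.5.3a with the GRCm38 (mm10) genome, and analysed the counts with DESeq2 and limma. The methods name a stranded library kit and the labels a standard one. The program that counted reads, its annotation, its use of strand and its treatment of reads with several positions are not given in the sources used here. Symbols and GRCm38 positions were found for 45143 genes and not for 563. Totals ran from 34992610 to 104509425 counts over the 21 libraries. The 10 most abundant genes took 6.52% to 20.6% of an S3 CD11b+ library.

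These counts were taken into edgeR 4.0.16 (R 4.3.3): filterByExpr over the 9 groups (minimum count 10, minimum total 15) kept 19555 genes with 99.99% of counts, TMM factors were applied, and 1 robust quasi-likelihood model was fitted over all 21 libraries (12 residual degrees of freedom), without an animal term since the study's methods describe none. Contrasts were S3 spleen minus S3 BM, the mean of the same in the 2 control genotypes, and their difference, each adjusted by Benjamini-Hochberg with a threshold of 0.05. Levels are CPM or log2 CPM with a prior count of 2, and a group with at most 3 counts in each library was taken as at the floor. No set test was run: lists are described by counts and medians. The members and lists were chosen with earlier results of these data known. Named were those called genes whose mean level reached 3 log2 CPM, the nearest not passing, all BCL-2 family genes, and for every list up to 4 genes of smallest p with the most abundant member. Nothing beyond the animal number says how samples were taken. The p-values of the main fit rest on the spread within the 9 groups of these 21 libraries only, LSK cells included. Replicates of a group differed by far more than counting noise. The animal numbers were read as pairs because the labels name 1 mouse, although the sex transcripts of 540 go against this, and deviations from the group means of same-numbered libraries had correlations over genes of 0.108, 0.407 and 0.333 for 540, 815 and 640. The replicate numbers of the control libraries gave 0.0585 and -0.147 and were not read as pairs. Alternatives were RLE or library-size scaling, other filters, DESeq2 1.42.0, limma 3.58.1, smaller sets of libraries, an animal block and leaving out libraries or animals. Promoters came from RefSeq, and figures were drawn with matplotlib 3.10.9 in Python 3.11.15.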

Additional observations from a re-analysis of the deposited data

How the results depend on the processing

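The S3 comparison gave 11 calls, 5 higher and 6 lower in the spleen. It gave 7 with RLE factors (1 higher, 6 lower), 1 with library size alone (lower), 17 without a filter, 12 when each compared library had to hold 10 or more counts, 14 with limma-voom and 551 with DESeq2, which held 7, 1, 9, 9, 5 and 11 of the 11. Fits of the 6 libraries alone, or of the 14 CD11b+ libraries, gave 0 (881 and 1009 genes at an unadjusted p under 0.05). The block by animal gave 0 over 14 libraries and 0 over 6 (1107 and 1325 genes), and 564 over 6 in DESeq2 (333 higher, 231 lower, with the 11 among them). Leaving out 1 library or 1 animal gave 0 to 716 calls: 460 without the BM of 640, 226 without its spleen, 716 without the animal, 3 without the BM of 540 or of 815, and 0 without either spleen or either of these animals. The 11 genes were among the calls in each fit that left out a 640 library. The controls gave 1949 calls, 3634 with DESeq2, 751 and 406 in the smaller fits, 0 with a block on replicate number and 681 to 3236 with 1 library left out. The difference gave 0 calls, 263 with DESeq2, and 0 to 49 with 1 library left out, the 49 without MxCre spleen replicate 2, 8 without MxCre BM replicate 1 and 1 without the BM of 815. Scaling by library size moved the median difference of all genes from 0.039 to -0.134.

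Of 4281 values of named genes under alternatives, 8 reversed and 81 more changed sign with an unadjusted p of 0.05 or more in both fits. With libraries or animals left out, Slc4a1 ran from -3.38 to 1.38 (0.53 as reported), Ank1 from -2.95 to 2.69 (1.40), Col1a1 from -3.64 to 0.14 (-2.71), Cxcl13 from -2.46 to 4.63 (-1.05) and Spp1 from -3.86 to 0.13 (-2.42), where each reversal was in a fit without a 640 library. With 640 kept, Cxcl13 also reversed, to 2.86, in the DESeq2 fit with a replicate block. A further 127 values lost and 266 gained a call. Of 42 list medians, 39 stayed within 1 SD of the animals without 640, 41 without 540 and 41 without 815, an SD that is wide with 3 unlike animals, and 4, 4 and 7 of them changed sign. The causes were not tested. Cd209b had 0 counts in the 3 S3 BM libraries, so that its fold is only a bound.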

Other observations

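Ctsk is best known from osteoclasts, and other genes of that cell were looked up after its value was seen. None of the 7 that were tested passed in edgeR with all 3 animals. The log2 fold change between S3 spleen and S3 BM was -1.09 for Atp6v0d2, -1.56 for Dcstamp, 1.40 for Ocstamp, 0.80 for Mmp14 and 0.09 for Nfatc1, with adjusted p of 0.755 to 0.971. The BM of animal 640 held 591 of the 755 BM counts of Atp6v0d2, 145 of the 165 of Dcstamp and 372 of the 401 of Ocstamp. Without that animal the log2 fold changes of these genes were 0.01, -0.25 and 3.74. Oscar had 80 counts over the 3 BM libraries and 4 over the 3 spleens (adjusted p 0.359), and Calcr, which was not tested, 23 and 0. Acp5 had 153, 63 and 400 CPM in the BM of animals 540, 815 and 640 and 638, 383 and 537 CPM in their spleens (log2 fold change 1.34, adjusted p 0.33). Without animal 640 it passed in edgeR as higher in the spleen, the other direction from Ctsk (log2 fold change 2.19, adjusted p 0.0119).

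The sex transcripts did not follow every replicate number of the control libraries either. In MxCre replicate 2 the BM library held 2834 counts of Xist and 1900 of the 4 Y-linked genes, and the spleen library 4 and 8860. In Ptpn11D61Y/+ replicate 1 the BM library held 1 and 6602, and the spleen library 4753 and 0. In MxCre replicate 1 and Ptpn11D61Y/+ replicate 2 the tissues were alike, with 0 to 2 counts of Xist and 4109 to 7901 of the Y-linked genes. The third S3 library numbered 540, of LSK cells, held 1 count of Xist and 15172 of the Y-linked genes.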
